A study of Rattus norvegicus with 6 samples.

Results

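Oxidative phosphorylation genes were examined in primary cardiomyocytes of neonatal Sprague-Dawley rats taken on postnatal day 1. A gene was a member when its row was protein-coding and either lay on the mitochondrial chromosome (MT) or carried a symbol of the Nduf, Sdh, Uqcr, Cox4 to Cox8 or Atp5 families. This gave 102 members among 43035 features of the count table, 89 of them nuclear and 13 mitochondrial. RNA was sequenced from 3 libraries labelled si-NC, for a scrambled control siRNA, and 3 labelled si-DYRK1A, for an siRNA against the kinase DYRK1A, all collected 48 h after transfection. The cells of both groups were cultured alike in serum-containing medium, and the labels call the libraries of a group biological replicates. The comparison asked how the mRNAs of each respiratory complex differed between the groups, and whether nuclear and mitochondrial genes differed alike.

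Oxidative phosphorylation makes most of the ATP of the heart. Complexes I and II pass electrons from NADH and succinate to coenzyme Q, complex III passes them to cytochrome c, complex IV passes them to oxygen, and complex V (ATP synthase) uses the resulting proton gradient to make ATP. Subunits of complexes I, III, IV and V come from both the nuclear and the mitochondrial genome, while complex II is entirely nuclear.

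Total counts lay between 10325074 and 11921772 per library. The row of Dyrk1a held 7 counts over all libraries, and an unannotated transcript across its locus held 777 to 971 counts per library and differed by only 0.08 ± 0.06 on the log2 scale (SE; edgeR, adjusted p = 0.374). The counts therefore did not check the knockdown, and si-DYRK1A below means the libraries labelled so. The study's authors checked the knockdown separately, by immunoblot of the kinase protein in primary neonatal cardiomyocytes. They report a significant difference from cells given the scrambled siRNA. Whether those cells were the ones sequenced is not given in the sources used here. Cardiomyocyte markers such as Actc1 (9908 to 11095 counts per 1000000, CPM) and Atp2a2 (3138 to 3946 CPM) were abundant, whereas Tnni3, Myh6, Myh7, Myl2 and Mybpc3 were listed at 0 counts in every library. CPM here is relative to the counts of the tested features after TMM scaling, which evens out library composition.

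Most measured members stood slightly higher in si-DYRK1A, and the mitochondrial members by more than the nuclear ones. Of the 102 members, 72 had enough counts to be tested, and 14 of these were called higher (edgeR, Benjamini-Hochberg adjusted p below 0.05) and 0 lower. Over all 15513 features tested, 15.2% were called, 8.03% higher and 7.19% lower. The log2 fold change was above 0 in 63 of the 72 members, against 50.39% of all features. The median log2 fold change was 0.11 over the 62 tested nuclear members and 0.31 over the 10 tested mitochondrial members, and 0.002 over all features. The groups did not overlap, with si-DYRK1A higher, in 25 of the 72 (16.2% of all features), and with si-DYRK1A lower in 1 (15.3% of all features), the ATP synthase-related gene Atp5s. In bulk RNA, fewer cells of a type and less RNA per cell cannot be told apart.

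**Figure D1:**
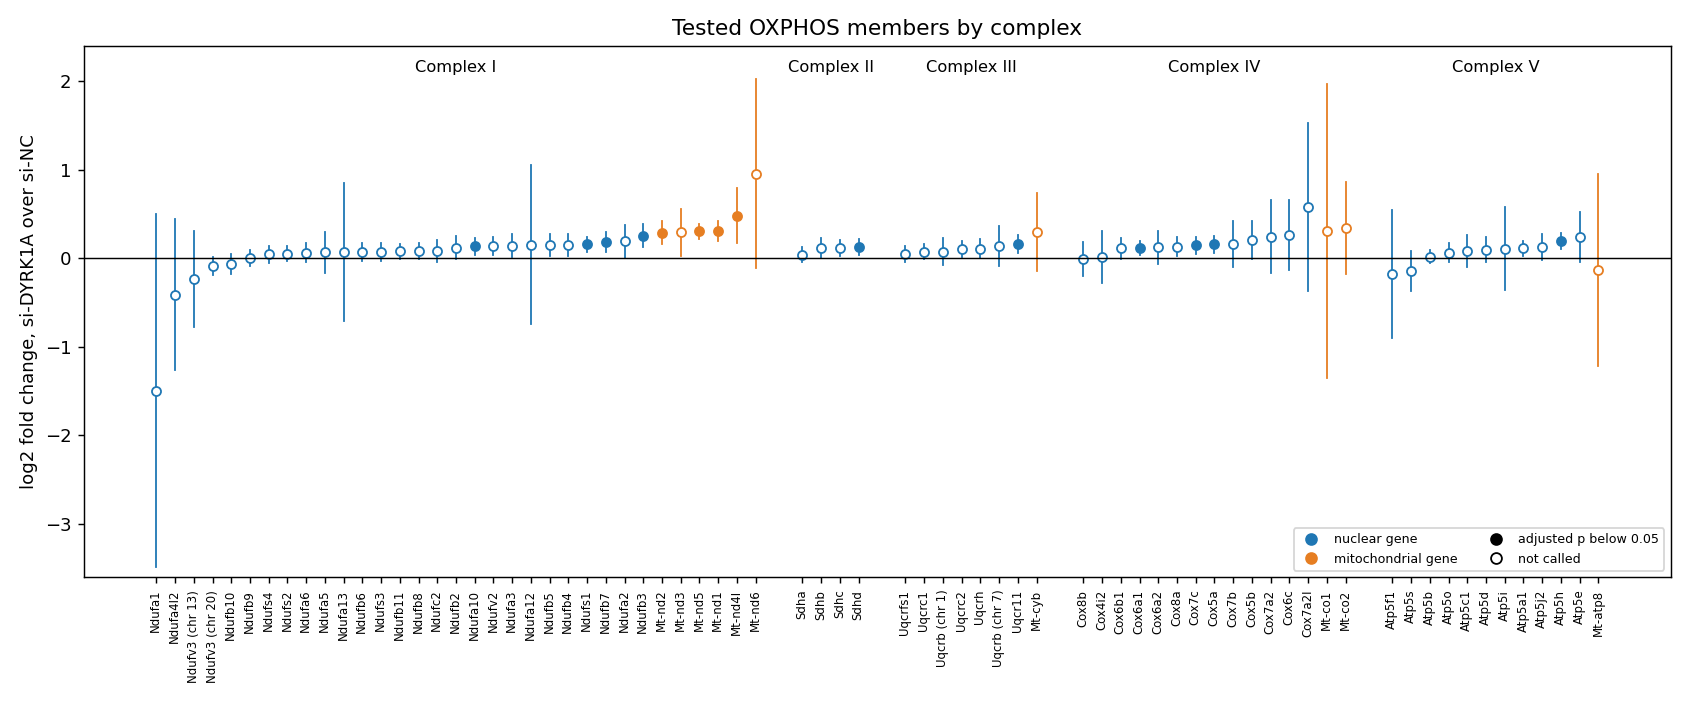
Log2 fold change of si-DYRK1A over si-NC (vertical axis) with its 95% confidence interval for the 72 tested members, grouped by complex, with nuclear genes in blue, mitochondrial genes in orange and called members filled. The 14 filled points all lie above 0, and the wide intervals belong to genes of low counts or unequal libraries such as Ndufa1 and Mt-co1.

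The number of nuclear calls depended on single libraries. It was 10 with all libraries. When si-NC replicate 1, 2 or 3 was left out it became 2, 5 or 18, respectively. It became 3 or 5 when si-DYRK1A replicate 2 or 3 was left out. In the same fits, all features called higher numbered 891, 1082 and 1123, and 900 and 854, against 1245 with all libraries. With limma on the log2 FPKM scale (FPKM is counts per length and depth) 0 nuclear members were called. Ndufa10, Sdhd and Cox6a1 missed the threshold in 19, 17 and 16 of the 21 alternatives, respectively, with adjusted p up to 0.235, 0.203 and 0.158 (edgeR, DESeq2 or limma). Ndufb7 missed it in 8, Uqcr11 and Ndufs1 in 7 each, Cox5a in 6, Ndufb3 in 5 and Atp5h in 3.

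The mitochondrial genome codes for 7 subunits of complex I, 1 of complex III, 3 of complex IV and 2 of complex V. Their mRNAs are cut from long transcripts read from a shared promoter region. Among the core subunits of the membrane arm of complex I, Mt-nd5 (MT, 11736 to 13565) measured 2706, 2699.6 and 2916 CPM in si-NC and 3584, 3369 and 3333 CPM in si-DYRK1A. Every si-DYRK1A library lay above every si-NC library. The log2 fold change came to 0.31 ± 0.04 (SE, n = 3 per group; adjusted p = 2.52e-05, edgeR).

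Mt-nd1 (MT, 2740 to 3694) measured 3142, 2994 and 3540 CPM in si-NC and 4136, 3892 and 3965 CPM in si-DYRK1A, a difference of 0.31 ± 0.05 on the log2 scale (adjusted p = 0.00109, edgeR). Mt-nd2 (MT, 3904 to 4942) measured 4417, 3999 and 4796 CPM in si-NC and 5618, 5185 and 5352 CPM in si-DYRK1A, a difference of 0.29 ± 0.06 on the log2 scale (adjusted p = 0.00644, edgeR). Both genes thus had separate groups, with the lowest value in si-NC replicate 2. The call was lost in 1 of 21 alternatives for Mt-nd1 and in 4 for Mt-nd2, never with a library left out. Their adjusted p reached 0.078 and 0.105, respectively (edgeR, DESeq2 or limma). Mt-nd4l overlaps Mt-nd4 and an unannotated transcript on its strand, and the part of this overlap in its counts was not tested. Mt-nd4l was called on few reads, 71 to 118 counts per library, with a difference of 0.48 ± 0.15 on the log2 scale (adjusted p = 0.0279, edgeR). This call was lost in 5 of 21 alternatives, in DESeq2 (adjusted p = 0.108) and when si-NC replicate 1 or any 1 of the si-DYRK1A libraries was left out (adjusted p up to 0.0841, edgeR).

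Mt-nd3 measured 3481, 2877 and 3666 CPM in si-NC and 4259, 4181 and 3856 CPM in si-DYRK1A, and did not pass the test (log2 fold change 0.29, adjusted p = 0.150, edgeR). Mt-cyb, the mitochondrial subunit of complex III, measured 3565, 2608 and 3735 CPM against 3945, 3960 and 4261 CPM (0.30, adjusted p = 0.341, edgeR). For both, the groups did not overlap and si-NC replicate 2 was the lowest library. The 2 tested catalytic subunits of complex IV varied more within si-NC. Mt-co2 measured 1875, 1494 and 2378 CPM against 2424, 2451 and 2422 CPM (0.34, adjusted p = 0.350, edgeR), and Mt-co1 measured 169.9, 68.6 and 308.4 CPM against 169.8, 246.7 and 262.4 CPM (0.31, adjusted p = 0.811, edgeR).

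Mt-nd6, the only member read from the other mitochondrial strand, had 45.0, 29.5 and 78.2 CPM in si-NC and 91.6, 97.7 and 107.0 CPM in si-DYRK1A, a log2 fold change of 0.95 ± 0.39 that did not pass (adjusted p = 0.223, edgeR). It overlaps the end of Mt-nd5, and the use of strand in counting is not given in the sources used here, so reads in the overlap cannot be told apart. Mt-atp8, of complex V, lay between 0.25 and 1.25 CPM (log2 fold change -0.13, adjusted p = 0.908, edgeR). Mt-nd4, Mt-cox3 and Mt-atp6 were listed at 0 counts in every library. An unannotated transcript (MT, 5323 to 11537) held 576 counts in all and spanned 8 members on their strand. These were the 3 genes at 0 and also Mt-nd3, Mt-co1, Mt-co2, Mt-nd4l and Mt-atp8, of which Mt-nd3 held 251554 counts. Mt-atp6 overlaps Mt-atp8 and Mt-cox3 on its strand, and Mt-nd4 overlaps Mt-nd4l. The part of these overlaps in the zero counts was not tested.

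**Figure D2:**
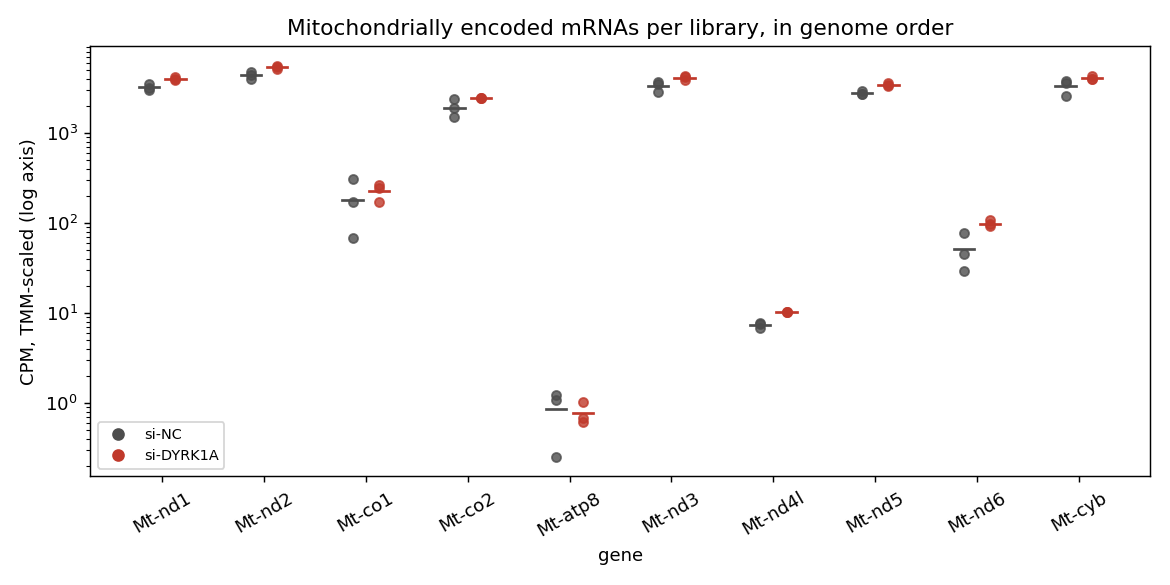
CPM on a log axis of the 10 tested mitochondrial members in genome order, with the si-NC libraries in grey, the si-DYRK1A libraries in red and a line at each group mean. Both groups separate for 8 genes, and overlap for Mt-co1 and Mt-atp8.

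Summed per library, the mitochondrial members took 19409, 16777 and 21427 CPM in si-NC and 24239, 23394 and 23570 CPM in si-DYRK1A, a ratio of means of 1.24. The nuclear members took 23886, 23356 and 25033 CPM in si-NC and 25648, 26135 and 25771 CPM in si-DYRK1A, a ratio of 1.07. Neither pair of groups overlapped. Both sums cover only a part of the genes. Mt-nd4, Mt-cox3 and Mt-atp6 were listed at 0 counts. Most of the mitochondrial sum came from the 6 members with at least 10000 counts in every library. The 27 untested nuclear members, Cox4i1 among them, added almost nothing to the nuclear sum. Within a library, the ratio of the mitochondrial to the nuclear sum does not depend on scaling. It was 0.813, 0.718 and 0.856 in si-NC and 0.945, 0.895 and 0.915 in si-DYRK1A, so that every si-DYRK1A library lay above every si-NC library, and the log2 ratio differed by 0.21 between groups. Without Mt-nd2, the mitochondrial member with the highest mean CPM, the difference was 0.22, and with the median FPKM of the members it was 0.24.

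The mitochondrial rRNA pair, read from the same strand as most of these mRNAs, had overlapping groups. It summed to 3016, 2947 and 3239 CPM in si-NC and 3062, 2998 and 2843 CPM in si-DYRK1A, a ratio of 0.968. The 22 mitochondrial tRNA genes had a ratio of 1.15 with overlapping groups. Enrichment of mRNA preceded sequencing and its yield for each RNA class was not tested.

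**Figure D3:**
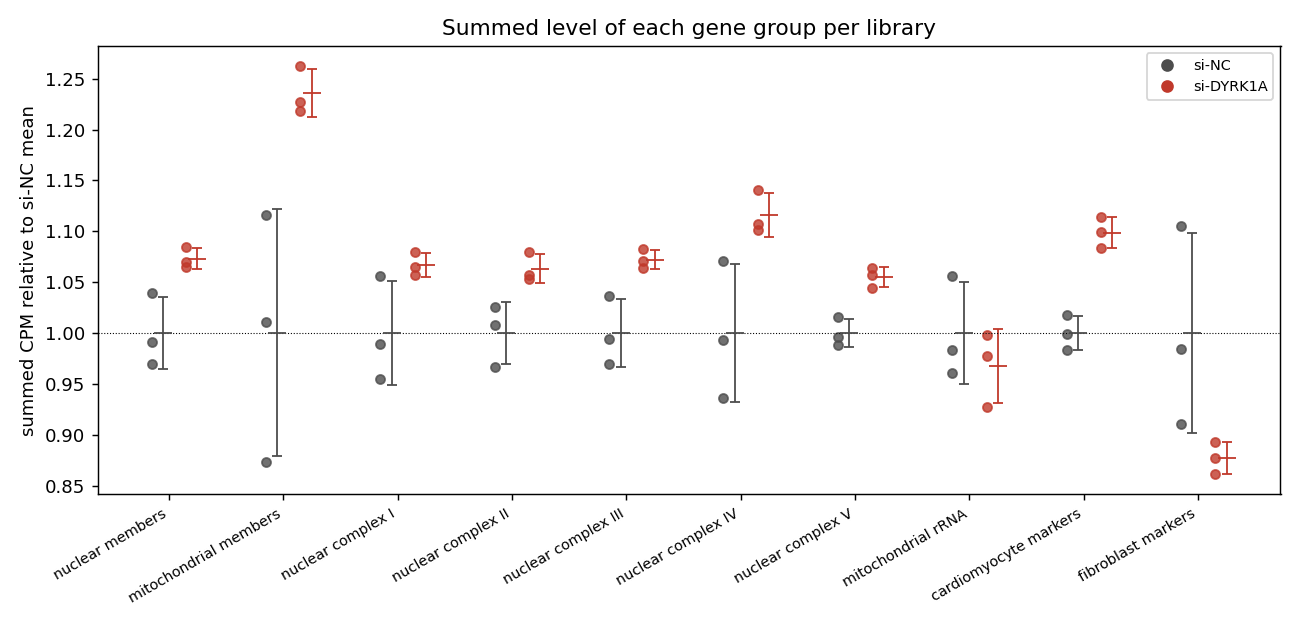
Summed CPM of each gene group in each library, divided by the si-NC mean, with si-NC in grey, si-DYRK1A in red and bars for mean and SD (n = 3). The mitochondrial members stand furthest from 1 in si-DYRK1A, the mitochondrial rRNA groups overlap, and the fibroblast sum, made mostly of 2 collagen genes, lies below 1 while 5 of its 7 tested genes had a log2 fold change above 0.

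The marker sums of cell types also differed between the groups. Of 14 matched cardiomyocyte markers, 8 were tested, 4 were called higher and 0 lower. Their sum ranged from 17346 to 17938 CPM in si-NC and from 19103 to 19637 CPM in si-DYRK1A. Of the 8 tested, 5 had a log2 fold change above 0 and 3 below (median 0.13, range -0.14 to 0.31). Myl3 lay below 0 with any library left out (-0.14 to -0.062). Over all features tested, 8.03% were called higher and 7.19% lower. The fibroblast markers (9 matched, 7 tested) ranged from 22107 to 26829 CPM in si-NC and from 20917 to 21674 CPM in si-DYRK1A, a sum made mostly of Col1a1 (14341 CPM in si-NC; log2 fold change -0.37, adjusted p = 0.0869, edgeR) and Col3a1. Gene by gene, 5 of the 7 had a log2 fold change above 0 (median 0.14), 2 were called higher, the matrix genes Lum and Postn, and 0 lower, so the sum and the median differed in sign. The endothelial markers (7 matched, 6 tested, 3 called lower) ranged from 169.8 to 188.5 CPM and from 137.8 to 143.7 CPM. The smooth muscle and pericyte sum also lay lower in si-DYRK1A (ratio 0.927). Of its 8 matched markers, 4 were tested, 1 with a log2 fold change above 0 and 3 below. Only Des was called, lower, and that call was lost in 5 of 21 alternatives. The macrophage sums overlapped (ratio 0.916), and of 9 matched markers 7 were tested and 0 called. The part of these cell type markers in the differences of the members was not tested.

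Complex I, which oxidises NADH, held 39 nuclear members. Of the 27 tested, 4 were called higher (8.03% of all features) and the median log2 fold change was 0.08. Complexes were assigned by symbol, so the 39 include Ndufa4 and Ndufa4l2, although Ndufa4 is known as a subunit of complex IV. Ndufb3, an accessory subunit of the membrane arm (chromosome 9, 65478496 to 65488702), measured 132.6, 122.5 and 146.6 CPM in si-NC and 156.6, 170.2 and 152.4 CPM in si-DYRK1A, the highest fold change of the tested nuclear members of complex I (0.25 ± 0.06, adjusted p = 0.00899, edgeR). Ndufb7, another membrane arm subunit, changed by 0.18 ± 0.05 (adjusted p = 0.0283), Ndufs1, the largest core subunit of the NADH-oxidising arm, by 0.16 ± 0.04 (adjusted p = 0.0153) and Ndufa10, an accessory subunit, by 0.14 ± 0.05 (adjusted p = 0.0487, all edgeR). The groups of all 4 were separate. Separate groups with si-DYRK1A higher occurred in 7 of the 27 tested and in 16.2% of all features.

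Ndufb4 had the highest level per length of the nuclear members of complex I (mean FPKM 673.2) and did not pass (log2 fold change 0.16, adjusted p = 0.0889, edgeR). Ndufa1 had the lowest fold change, -1.49 ± 0.73, from 80, 212 and 321 counts in si-NC and 46, 35 and 130 counts in si-DYRK1A. Its groups overlapped and it did not pass (adjusted p = 0.297, edgeR).

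The promoter sequences of Ndufb3, with the largest called nuclear fold change, and of Ndufb7 and Ndufs1, the called members with an ETS motif, are given here. Each is the 250 bases before the RefSeq gene start (GRCr8), 5′ to 3′ on the gene strand, at chr9:67623167-67623416 (plus), chr19:41477292-41477541 (minus) and chr9:72073606-72073855 (minus). Capitals mark the ETS motif CCGGAAGT or its reverse complement.
Ndufb3: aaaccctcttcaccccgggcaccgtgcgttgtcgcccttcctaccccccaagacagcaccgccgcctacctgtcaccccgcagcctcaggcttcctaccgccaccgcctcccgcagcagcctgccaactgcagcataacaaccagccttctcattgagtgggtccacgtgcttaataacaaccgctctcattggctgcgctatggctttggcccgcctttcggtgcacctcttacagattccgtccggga
Ndufb7: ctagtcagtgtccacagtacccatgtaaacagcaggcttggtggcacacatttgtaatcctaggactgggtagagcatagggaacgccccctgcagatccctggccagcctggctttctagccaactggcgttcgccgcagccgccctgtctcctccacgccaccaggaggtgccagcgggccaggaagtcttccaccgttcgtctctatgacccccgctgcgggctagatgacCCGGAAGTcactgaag
Ndufs1: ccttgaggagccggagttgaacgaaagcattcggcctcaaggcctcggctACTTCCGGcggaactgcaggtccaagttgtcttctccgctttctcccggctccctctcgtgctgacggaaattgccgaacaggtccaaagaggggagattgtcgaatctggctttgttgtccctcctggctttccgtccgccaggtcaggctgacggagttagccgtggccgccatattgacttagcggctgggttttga

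RefSeq promoters were matched, by symbol or synonym and not by position, for 76 of the 89 nuclear members, giving 74 different genes. In all, 4 motifs of factors known to act on respiratory genes were searched on both strands, chosen after the results were known. The NRF1 core CGCATGCG was in 7 of the 74 promoters (9.5%) and in 2.06% of all 19005 protein-coding promoters. A shifted NRF1 form, GCGCATGC, which overlaps that core, was in 9 (12.2%) and 2.95%. The ETS motif bound by GABP was in 8 (10.8%) and 4.16%, and the ERR core TCAAGGTCA in 1 (1.4%) and 0.31%. Among the 8 is Ndufa13, whose row lies on chromosome 7 but whose matched promoter lies on chromosome 16, so that motif may not belong to the row measured. Among the 7 matched members called higher, 2 held the ETS motif and none held either NRF1 form or the ERR core. These are matches of letters in a window and describe no binding.

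Complex II, which oxidises succinate, had 4 members, all tested, with a median log2 fold change of 0.12. Sdhd, a membrane anchor, measured 342.6, 333.9 and 347.1 CPM in si-NC and 361.1, 374.6 and 384.1 CPM in si-DYRK1A and was called higher (0.13 ± 0.04, adjusted p = 0.0431, edgeR). Sdha, the flavoprotein that binds succinate, had the lowest value (0.04, adjusted p = 0.584, edgeR), and the iron-sulfur subunit Sdhb, at the highest level per length (mean FPKM 341.4), had 0.12 (adjusted p = 0.158, edgeR).

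In complex III, 7 of 9 nuclear members were tested and all had a log2 fold change above 0 (median 0.10). Uqcr11, a small subunit with the highest level per length of the nuclear members of the complex (mean FPKM 950.4), was called higher at 472.8, 422.1 and 482.1 CPM against 500.8, 512.7 and 529.4 CPM (0.16 ± 0.05, adjusted p = 0.0239, edgeR). Uqcrfs1, the Rieske iron-sulfur protein, had the lowest value (0.05, adjusted p = 0.498, edgeR). Cyc1, the cytochrome c1 subunit that the symbol rule leaves out, was called higher too (0.14 ± 0.04, adjusted p = 0.0199, edgeR). Uqcrb, Ndufv3 and Cox6b1 each occupy 2 rows of the table, so their counts are uncertain.

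Complex IV, cytochrome c oxidase, had the highest nuclear median, 0.15 over 13 tested members of 20. Cox5a, a structural subunit, was called higher at 377.3, 399.8 and 405.9 CPM against 434.7, 422.2 and 466.8 CPM (0.16 ± 0.05, adjusted p = 0.0200, edgeR). Cox6a1, the broadly expressed isoform of a regulatory subunit, was called at 1078, 1094 and 1065 CPM against 1168, 1178 and 1159 CPM (0.12 ± 0.04, adjusted p = 0.0449, edgeR). Cox7c, named after its values were seen, was called with overlapping groups (0.15, adjusted p = 0.0402, edgeR).

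Several subunits of complex IV have isoforms that are known to change as the heart matures. The FPKM ratio of Cox6a1 to the muscle isoform Cox6a2 was 1.39 ± 0.13 in si-NC and 1.38 ± 0.12 in si-DYRK1A (SD, n = 3), and that of Cox8a to the muscle isoform Cox8b was 16.4 ± 1.92 and 17.9 ± 1.08. The groups overlapped in both ratios. Cox6a2 (0.13, adjusted p = 0.367), Cox8a (0.13, adjusted p = 0.0960), Cox8b (-0.01, adjusted p = 0.974), the hypoxia-linked Cox4i2 (0.02, adjusted p = 0.962) and Cox7a2l, known for its part in supercomplexes (0.58, adjusted p = 0.452), did not pass (edgeR). Cox7a2l held only 3 to 17 counts per library and was covered by an unannotated transcript. Cox7a2 (0.24, adjusted p = 0.401), Cox7b (0.16, adjusted p = 0.392) and the tested row of Cox6b1 (0.11, adjusted p = 0.216) did not pass either (edgeR). Atp5g1 of complex V, at 2 to 11 counts per library, was not tested. Cox4i1, the main isoform of its subunit, was listed at 0 counts, so no ratio to Cox4i2 was made. Ndufa4, also at 0, left Ndufa4l2 (8 to 19 counts per library; -0.41, adjusted p = 0.573, edgeR) without its partner.

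In complex V, 11 of 17 nuclear members were tested, with a median log2 fold change of 0.10. Atp5h, a subunit of the stalk that holds the catalytic head (chromosome 10, 103967312 to 103972668), measured 575.0, 552.3 and 608.7 CPM in si-NC and 676.4, 666.9 and 644.1 CPM in si-DYRK1A. The groups were separate, and it had the smallest adjusted p of the nuclear members (0.19 ± 0.04, adjusted p = 0.00361, edgeR). Atp5b, the catalytic beta subunit, was the most abundant nuclear member per length (mean FPKM 2490.3) and ranged from 4363 to 4528 CPM over all 6 libraries (0.02, adjusted p = 0.766, edgeR). Atp5e, a small subunit of the head, had the highest fold change (0.24, adjusted p = 0.240) and Atp5f1 the lowest (-0.18, adjusted p = 0.796, edgeR). Atp5f1 held only 12 to 26 counts per library, and an unannotated transcript over it held 595 in all.

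The other 30 members, 27 nuclear and 3 mitochondrial, were not tested. Of these, 16 were at 0 counts in every library and 25 were covered over at least 50% of their length by unannotated transcripts on their strand. The nuclear members with under 10 counts in every library were Ndufa10l1, Ndufa11, Ndufa4, Ndufa7, Ndufa8, Ndufa9, Ndufb4l1, Ndufc1, Ndufs5, Ndufs7, Ndufs8, Ndufv1, Uqcr10, Uqcrq, Cox4i1, 1 row of Cox6b1, Cox6b2, Cox6c-ps1, Cox7a1, Cox7b2, Cox8c, Atp5g2, Atp5g3, Atp5j, Atp5l and Atp5sl. Several of them are core subunits that every respiring cell uses, so a zero here says only what the table lists. The unannotated transcript over Ndufs7, a core subunit of complex I, held 1115 counts, and that over Cox4i1 held 206. Such transcripts were summed with their gene only where they overlapped no other gene on their strand, which left out every mitochondrial member. After this summing, 12 members were called higher and 0 lower, and of all features 1207 and 1151, respectively.

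The regulators of these genes were read from lists, whose counts of calls stand against the 8.03% of all features called higher and the 7.19% called lower. Among 18 biogenesis regulators, 9 were tested, 2 were called higher and 0 lower (median 0.11). The log2 fold change was below 0 in 3, Gabpb1 (-0.92, adjusted p = 0.171), Esrrb (-0.51, adjusted p = 0.184) and Ppara (-0.17, adjusted p = 0.520, edgeR), and the groups of Esrrb and Ppara were separate. Ppargc1a (PGC-1 alpha), a coactivator of respiratory gene transcription, measured 16.8, 18.2 and 16.1 CPM in si-NC and 22.3, 21.5 and 26.1 CPM in si-DYRK1A (log2 fold change 0.45 ± 0.10, adjusted p = 0.00432, edgeR), a call lost without si-DYRK1A replicate 3. Its paralog Ppargc1b measured 38.3, 44.4 and 36.9 CPM and 56.5, 56.2 and 55.6 CPM (0.49 ± 0.08, adjusted p = 9.71e-05, edgeR). The groups were separate for both. Nrf1 was listed at 0 counts and Gabpa at 1 count in all, so neither could be tested.

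**Figure D4:**
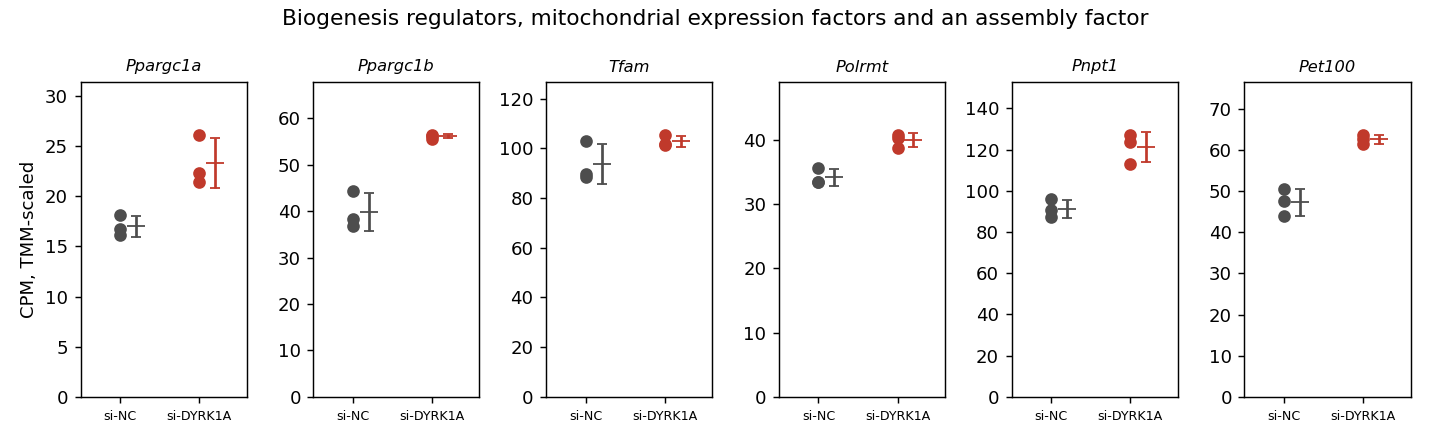
CPM from 0 of 6 genes in each si-NC (grey) and si-DYRK1A (red) library, with bars for mean and SD (n = 3). The groups are separate for Ppargc1a, Ppargc1b, Polrmt, Pnpt1 and Pet100 and overlap for Tfam.

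Of 32 genes of mitochondrial DNA expression, 20 were tested, 2 were called higher, a share near that of all features, and 0 lower (median 0.13). Polrmt, the mitochondrial RNA polymerase, measured 35.7, 33.4 and 33.4 CPM against 40.3, 40.8 and 38.8 CPM, and was lost in 17 of 21 alternatives (0.23 ± 0.08, adjusted p = 0.0469, edgeR). Pnpt1, a mitochondrial RNA exonuclease, measured 90.5, 87.1 and 96.0 CPM against 123.6, 127.2 and 112.9 CPM (0.41 ± 0.06, adjusted p = 2.66e-05, edgeR). Tfam, which packages mitochondrial DNA and starts its transcription, did not pass (0.13, adjusted p = 0.141, edgeR).

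Assembly factors help subunits find their place without staying in the complex. Of 51 matched, 26 were tested, 6 were called higher and 0 lower (median 0.09). Pet100, which helps build complex IV, measured 43.9, 50.4 and 47.5 CPM against 63.7, 62.5 and 61.5 CPM (0.40 ± 0.07, adjusted p = 0.000284, edgeR). The complex III factor Lyrm7 (0.44) and the complex I factors Foxred1 (0.23) and Tmem126b (1.46) were also called, the last at 0.51 to 2.51 CPM. The call was lost in 11 of 21 alternatives for Foxred1, with 5 of the 6 leave-outs of a library among them (all but si-DYRK1A replicate 1), in 6 of 19 for Tmem126b (si-NC replicate 2 and si-DYRK1A replicates 1 and 3) and in 5 of 21 for Lyrm7 (si-DYRK1A replicate 1).

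Of 32 electron and phosphate carrier genes, 24 were tested, 4 were called higher and 1 lower. Among genes of coenzyme Q, the electron carrier between complexes, Coq5 (0.29), Coq9 (0.19) and Coq8a (0.18) were called higher and Coq10a lower (-0.55). Coq8a was lost in 10 of 21 alternatives, Cyc1 in 9, Coq10a in 6 and Coq5 in 5. Of 22 genes around the tricarboxylic acid cycle, 15 were tested, with Idh3a, a subunit of isocitrate dehydrogenase, called higher (0.18) and Pdk2, a kinase that inhibits pyruvate dehydrogenase, called lower (-0.34). The medians of these lists were 0.04 and 0.06.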

How the data were processed

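The study's methods state that the authors mapped paired reads to Rnor_6.0 with HISAT2, whereas the labels name Bowtie and the mouse build mm8. For the counting tool, the annotation release and strandedness, the entry is: not given in the sources used here. Deposited were the authors' raw counts per gene and FPKM values, which are those counts divided by length and scaled by a constant per library. Features without a gene name, 17.2% to 17.6% of the counts, stayed in, as each carries a separate identifier. All columns of per-sample values were matched to samples, and groups came from the labels.

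Counts were tested with the quasi-likelihood test of edgeR 4.0.16 (R 4.3.3) with TMM, a robust fit and filterByExpr (minimum count 10, scaled to library size, in 3 libraries, and a total of 15). P-values were two-sided and Benjamini-Hochberg adjusted over all features tested, with a threshold of 0.05. Exact permutation tests with 3 libraries against 3 cannot go below 0.1 and were not used for calls. SE is the log2 fold change divided by the root of F. P-values measure the spread between these libraries. No library was a repeat of another within sampling noise.

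The genes named were all mitochondrial members, the called nuclear members with separate groups, the most abundant, highest and lowest member of each complex, the isoforms, up to 4 called genes per list and direction with Ppargc1a and Tfam, members under 10 counts, Dyrk1a and the top cell type markers. Other cell type markers called were named after their values were seen. The members and lists were chosen with earlier results of these data known. Of 232 list symbols, 219 were found directly, 2 under older symbols, and 11 were not found.

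Alternatives were DESeq2 1.42.0, limma-voom and limma 3.58.1 on log2(FPKM + 1 or 0.1) with and without a filter (FPKM above 0.5 in 3 libraries), RLE, upper-quartile and library-size scaling, library sizes without MT, other count filters, removal of the length trend, the replicate block, sums with unannotated transcripts, and each library left out. On data simulated for this comparison (15513 genes, 200 changed), edgeR recovered 66.7% of changes of 1 and 35.3% of 0.5 on the log2 scale, and 10% of its calls were false. Figures were drawn with matplotlib.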

Additional observations from a re-analysis of the deposited data

How the results depend on the processing

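Medians of the nuclear (0.07 to 0.13) and mitochondrial members (0.21 to 0.38) stayed above 0 with any library left out, and the log2 ratio difference was 0.14 to 0.27. Mt-nd5 passed under every alternative run, and Atp5h under all but the 3 FPKM fits. Library size alone shifted the median of all features to -0.02. Nuclear members called higher numbered 4 with library size only, 6 with the length trend removed and the block, 0 in the 3 FPKM fits and 2 to 18 with a library left out. Mitochondrial members called higher numbered 2 in the FPKM fit without filter. All features called higher numbered 823 in DESeq2 and 662, 655 and 344 in the FPKM fits (pseudocount 1, 0.1, and 1 without filter). They numbered 1063 with library size only, 1163 with the length trend removed and the block, and 854 to 1123 with a library left out. Features called lower numbered 537, 525 and 247 in the FPKM fits. List genes called higher were 15, against 8 in DESeq2, 9 with library size only, 7, 7 and 3 in the FPKM fits and 6 to 15 with a library left out. List genes called lower were 2, against 1 in DESeq2, the FPKM fit without filter and the sums with unannotated transcripts, and 1 to 3 with a library left out. The nuclear complex I median, 0.08, ranged from 0.048 (without si-NC replicate 2) to 0.11, that of complex II from 0.082 to 0.13 and that of complex V from 0.053 to 0.13 with a library left out. The cause of these shifts was not tested.

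Replicate numbers did not pair the samples (correlations of same-numbered deviations 0.07, -0.02 and -0.01). With the replicate block, 8 nuclear members were called higher and 1 lower, Ndufa1 (adjusted p = 0.0268, edgeR), also 1 with the length trend removed, and 19% of calls were false on simulated data.

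Uncalled genes near 0 changed sign. Mt-atp8 was 0.11 in limma-voom and 0.026, 0.10 and 0.026 in the FPKM fits. Atp5b was -0.0049, Cox4i2 -0.0094 and Col3a1 -0.0062 with library size only. With a library left out, Mt-co1 ranged from -0.086 to 0.93, Mt-atp8 from -0.58 to 0.21, Cox8b from -0.090 to 0.065, Atp5f1 from -0.32 to 0.044, Cox4i2 from -0.085 to 0.13, Col3a1 from -0.025 to 0.058, Cnn1 from -0.024 to 0.0078 and Kdr from -0.11 to 0.086.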
